A study of Mus musculus with 9 samples.

Results

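The 9 genes described here build, coat and break down lipid droplets. They were followed in 6620c1, a mouse pancreatic tumor cell line, through culture in a medium poor in nutrients. They were chosen by symbol for their known roles. Plin2 and Plin3 encode droplet coat proteins, Lpin1, Dgat1 and Dgat2 enzymes of triglyceride synthesis, Pnpla2 the lipase ATGL, Abhd5 its activator, and Hilpda and G0s2 its inhibitors. All 9 were found among the 24493 gene rows of the table. The expression filter asked for 1 TPM or more in 3 or more of the 9 samples. Of the 12693 rows that passed it, 8 were members, and G0s2 was not among them.

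Lipid droplets store fatty acids as triglyceride, and sterols as esters, under a single layer of phospholipid. Lipins make diacylglycerol from phosphatidic acid, the DGAT enzymes add the last fatty acid, and ATGL takes off the first one when the store is used. Perilipins on the droplet surface limit the access of lipases. Cells short of oxygen are known to store lipid, and Hilpda is a textbook target of the hypoxia-inducible factors (HIF).

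The study collected 3 samples each at day 0, day 2 and day 14, all of this 1 line, with no further treatment and no genetic alteration named in the labels. The cells were in DMEM in which amino acids were cut to 20% of the standard, serum (fetal calf) to 0.5% and glucose to 2.5 mM, and the labels list this medium for day 0 as for the later days. They give neither the oxygen level nor the medium that the cells left at day 0. The design has no undeprived culture of the same age, so time in culture and deprivation cannot be told apart. Whether the 3 samples of a day were separate cultures is not stated, so each p-value reflects the spread among these samples only, which may be technical.

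Levels are given as TPM, a transcript abundance corrected for transcript length, so that genes can be set side by side. Read totals cannot be recovered from TPM. Depth is therefore unknown, and counting errors cannot be given. Changes are log2 fold changes of TPM + 1 from limma, with p-values adjusted by the Benjamini-Hochberg method over all 12693 genes. A gene rose or fell where the adjusted p was under 0.05.

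Samples correlated across genes at r from 0.947 to 0.979 within a day and from 0.841 to 0.937 between days, and genes are not independent replicates. The row Mir6236 alone held 8.27% to 11.3% of all TPM at day 0, 13.2% to 22.5% at day 2 and 11.04% to 13.7% at day 14, which lowers the TPM of every other gene in proportion. The 6 epithelial markers summed to 10785 to 11441 TPM at day 0, 5456 to 7572 at day 2 and 6786 to 8543 at day 14. The sum is mostly that of the keratin genes Krt7, Krt8, Krt18 and Krt19, whose means were highest at day 0. The other genes of the list went otherwise. The mean of Cdh1 was 240, 224 and 399 TPM on the 3 days, and that of Epcam 2.23, 0.686 and 14.1, both highest at day 14. Of 10 adipocyte markers, 3 (Cidec, Lipe and Pparg) had a mean of at least 1 TPM on each day, and 2 (Plin1 and Cfd) were listed at 0 in all 9 libraries. The sums over the adipocyte list were 78.7 to 95.8 TPM at day 0, 92.2 to 143 at day 2 and 82.8 to 146 at day 14, and the fat cell hormone gene Adipoq did not exceed 0.654 TPM. The 8 macrophage markers summed to 81.0 to 93.5, 53.2 to 88.9 and 89.2 to 151 TPM on the 3 days, while Ptprc (CD45) did not exceed 0.515 TPM and Adgre1 0.0687 TPM. Within this list the mean of Cd14 was 60.3, 39.3 and 102 TPM on the 3 days, that of Mrc1 26.6, 27.99 and 10.4, that of Cd68 2.20, 3.70 and 6.32, and that of Csf1r 0.215, 0.559 and 3.97. The sums of 6 acinar markers were 1.40 to 1.53, 1.08 to 2.81 and 4.49 to 6.45 TPM, and those of 4 endothelial markers 0 to 0.115, 0.0283 to 0.346 and 0.677 to 1.13 TPM. Fibroblast markers did not exceed 3.68 TPM in sum. The part of these shifts in the changes of the 9 genes was not tested. In bulk samples, fewer cells of a type and less RNA per cell cannot be told apart.

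At day 2 the inhibitor Hilpda and the lipin Lpin1 stood several fold above day 0, and Plin2 stood below it. By day 14 the values of Hilpda overlapped those of day 0, Plin2 had risen again, and Pnpla2 was above both earlier days. Of the 8 tested members, 3 rose (Plin3, Lpin1, Hilpda) and 3 fell (Plin2, Dgat2, Abhd5) at day 2 against day 0. In this comparison 59.0% of all genes passed the test, 27.1% as higher and 31.9% as lower, so the number of calls is near what genes at large showed. At day 14 against day 0, 2 rose (Lpin1, Pnpla2) and 2 fell (Dgat2, Abhd5), beside 55.1% of all genes called, 36.2% higher and 18.8% lower. At day 14 against day 2, 2 rose (Plin2, Pnpla2) and 1 fell (Hilpda), where 31.2% of all genes were called, 27.4% higher and 3.79% lower. The values of the 2 groups did not overlap for 6, 6 and 4 of the 8 members in these 3 comparisons, and for 66.5%, 66.6% and 41.3% of all genes tested, so these counts too are near those of genes at large. The median change of the members was 0.20, 0.36 and -0.10, beside -0.02, 0.22 and 0.25 for all genes tested. The first pair of comparisons shares the day 0 samples. Lpin1 passed the expression filter only with libraries of the later days, so its rises from day 0 are partly set by the filter.

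**Figure D1:**
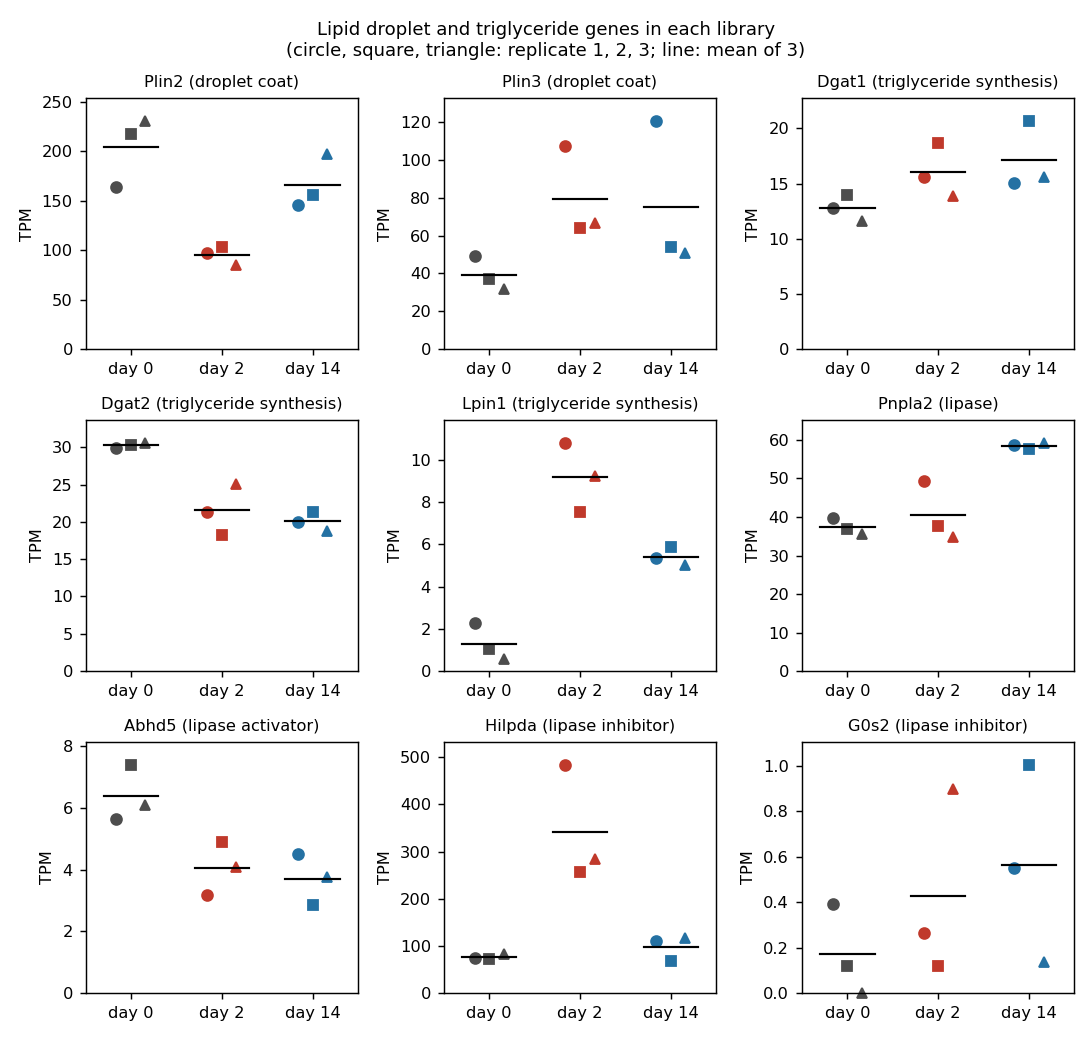
TPM of each of the 9 genes (vertical axis, from 0) in the 9 libraries by day (horizontal axis), with circles, squares and triangles for replicates 1, 2 and 3 and a line at the mean of 3. Hilpda was at 256 to 484 TPM at day 2 and at no more than 116 TPM in any library of the other days, while Plin2 was lowest at day 2.

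The balance of higher and lower calls depended on the scaling between libraries. With TPM as deposited, 45.9%, 65.8% and 87.8% of the called genes were higher in the 3 comparisons, in the order given above. With median-of-ratios scaling, which centres the bulk of the genes, the shares at day 14 were 48.6% against day 0 and 54.1% against day 2. With quantile normalization they were 46.1% and 43.7%. With the 20 most abundant rows taken out of the total, the share at day 2 was 56.2% and that at day 14 against day 2 was 75.9%. The median of all genes at day 14, 0.22 against day 0 and 0.25 against day 2, came to 0.02 and 0.00 with median-of-ratios scaling, so small changes at day 14 are also given below relative to that median.

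**Figure D2:**
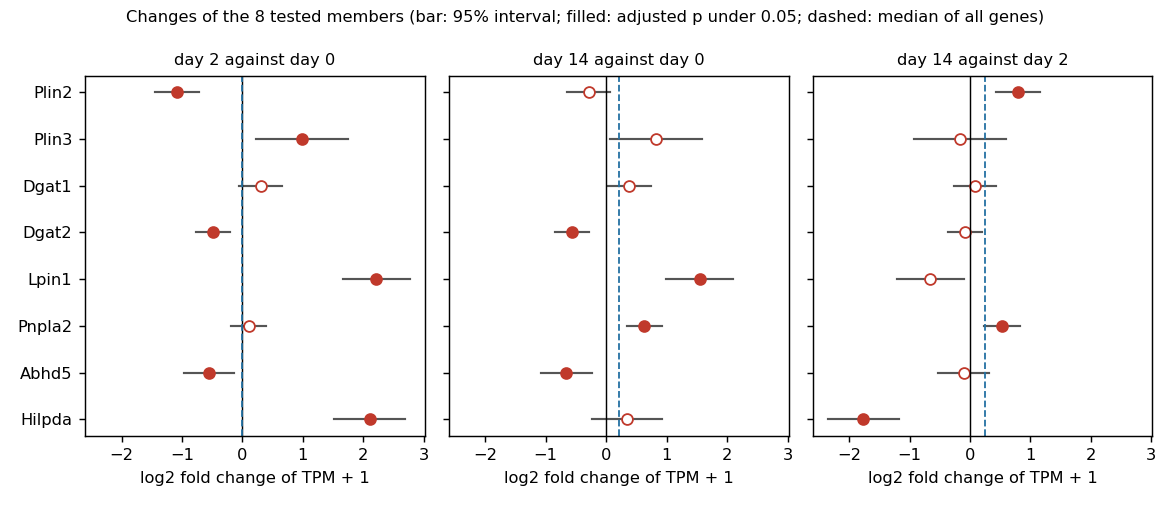
Log2 fold change of TPM + 1 (horizontal axis) of the 8 tested genes in 3 comparisons, with 95% intervals as bars, filled points where the adjusted p was under 0.05 and a dashed line at the median of all genes. Lpin1 and Hilpda lie above 2 at day 2 against day 0, and Hilpda lies at -1.76 at day 14 against day 2.

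The order of the levels changed with time. At day 0 Plin2 had the highest mean, 204 TPM, followed by Hilpda at 75.5, Plin3 at 39.2, Pnpla2 at 37.4, Dgat2 at 30.3, Dgat1 at 12.8, Abhd5 at 6.38 and Lpin1 at 1.29 TPM. Of these neighbours, Plin3 and Pnpla2 overlapped between libraries. At day 2 Hilpda came first, above Plin2, and Lpin1 stood above Abhd5. Plin2 and Plin3 then overlapped, as did Dgat2 and Dgat1. At day 14 Plin2 came first again, Plin3 overlapped both Hilpda and Pnpla2, and Dgat2 overlapped Dgat1. The mean of Hilpda lay at the 84.8th, 97.8th and 89.1th percentile of all tested genes on the 3 days, and that of Lpin1 at the 10.5th, 35.96th and 20.1th.

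Plin2, the coat protein of droplets in most cell types, fell at day 2 and rose again by day 14. It was at 164, 217 and 231 TPM in replicates 1 to 3 of day 0, at 97.7, 103 and 84.9 TPM at day 2, and at 146, 156 and 197 TPM at day 14. All day 2 libraries were below all others, and days 0 and 14 overlapped. The mean went from 204 ± 35.1 to 95.2 ± 9.32 and 166 ± 27.1 TPM (SD, n = 3). The log2 change was -1.08 at day 2 (SE 0.16, limma adjusted p 0.000379) and -0.29 at day 14 against day 0 (adjusted p 0.1497, 95% interval -0.65 to 0.07). From day 2 to day 14 it rose by 0.79 (adjusted p 0.00619), or 0.54 above the median of all genes. With median-of-ratios scaling the day 14 value against day 0 was -0.51 and passed the test (adjusted p 0.0114), it passed without replicate 1 of day 0 at -0.44 (adjusted p 0.0432), and with quantile normalization the day 2 value was -0.64.

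Plin3, a coat protein that also occurs free in the cytosol, went the other way at day 2. Its TPM were 49.1, 36.9 and 31.8 at day 0, 108, 64.1 and 66.8 at day 2, and 121, 54.0 and 50.6 at day 14. Replicate 1 was the highest on each day, and no later library overlapped day 0. The rise at day 2 was 0.98 (SE 0.34, adjusted p 0.0311), from a mean of 39.2 ± 8.90 to 79.5 ± 24.4 TPM. It missed the threshold without replicate 2 of day 0 (adjusted p 0.0773), without replicate 3 of day 0 (0.0986), without replicate 1 of day 2 (0.107, at a change of 0.75), and with no expression filter (0.0624). At day 14 the change against day 0 was 0.82 (adjusted p 0.0633, interval 0.06 to 1.58), which passed without replicate 3 of day 14 at 1.05 (adjusted p 0.0378), and against day 2 it was -0.16 (adjusted p 0.753, interval -0.92 to 0.60).

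Promoter windows of RefSeq (assembly GRCm38.p6, 250 bases before to 50 after a transcript start) were at hand for 7 of the 9 members. They were searched on both strands for ACGTG and GCGTG, the core letters of HIF elements, for CACGTG, the E-box, which holds ACGTG on each strand, and for AGGTCA, the half-site letters of nuclear receptors. The bases before the start are shown for both coats, since the 2 genes changed in opposite directions at day 2, with matches in capitals. Plin2 lies on the minus strand at chr4:86670060-86670309, and Plin3 on the minus strand at chr17:56290512-56290761.
Plin2: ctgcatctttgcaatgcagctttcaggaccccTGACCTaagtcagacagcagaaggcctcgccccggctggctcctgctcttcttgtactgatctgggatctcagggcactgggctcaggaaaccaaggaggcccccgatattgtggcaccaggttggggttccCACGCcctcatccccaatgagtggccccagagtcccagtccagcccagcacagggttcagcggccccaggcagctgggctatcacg
Plin3: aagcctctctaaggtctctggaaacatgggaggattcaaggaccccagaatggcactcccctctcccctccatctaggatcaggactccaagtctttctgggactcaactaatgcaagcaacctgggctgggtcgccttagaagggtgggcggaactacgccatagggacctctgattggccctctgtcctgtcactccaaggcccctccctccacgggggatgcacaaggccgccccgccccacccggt
The capitals in Plin2 are AGGTCA, read on the other strand, from position -218 and GCGTG, also read on the other strand, from position -86, counted from the start with no position 0. A further match, CACGTG from position -4, runs over the start of Plin2. It is shown with 10 bases on each side, a stretch at chr4:86670048-86670073.
Plin2 E-box: gctgggctatCACGTGgctcggaggc
The Plin3 window held 0 matches to the 4 motifs. Of 32851 RefSeq windows of the same length, 43.77% held ACGTG or GCGTG, 7.15% CACGTG and 16.26% AGGTCA. A match describes letters in a window and shows no binding.

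The 2 coats made up nearly all perilipin transcripts, and their shares shifted. Among Plin1 to Plin5 summed, Plin2 took 83.1% ± 5.97 at day 0 (SD, n = 3). At day 2 this share was 51.3% ± 7.49, and at day 14 it was 67.7% ± 14.0. Plin3 took 16.5% ± 5.64, 41.7% ± 5.89 and 29.4% ± 11.8 on these days. Plin4 held 0.300%, 5.90% and 2.55% on the 3 days, and Plin5 0.107%, 1.12% and 0.361%. The sum of the family was 244 ± 25.6, 188 ± 31.5 and 249.1 ± 34.1 TPM. Within each library, the ratio of Plin2 to Plin3 was 3.35, 5.89 and 7.26 at day 0, 0.908, 1.61 and 1.27 at day 2, and 1.21, 2.88 and 3.899 at day 14. Such a ratio is unchanged by a scaling that multiplies all genes of a library by a common factor. Quantile normalization is not of this kind. Days 0 and 2 did not overlap in the ratio of Plin2 to Plin3. Ratios and shares are given as a description, with no test.

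**Figure D3:**
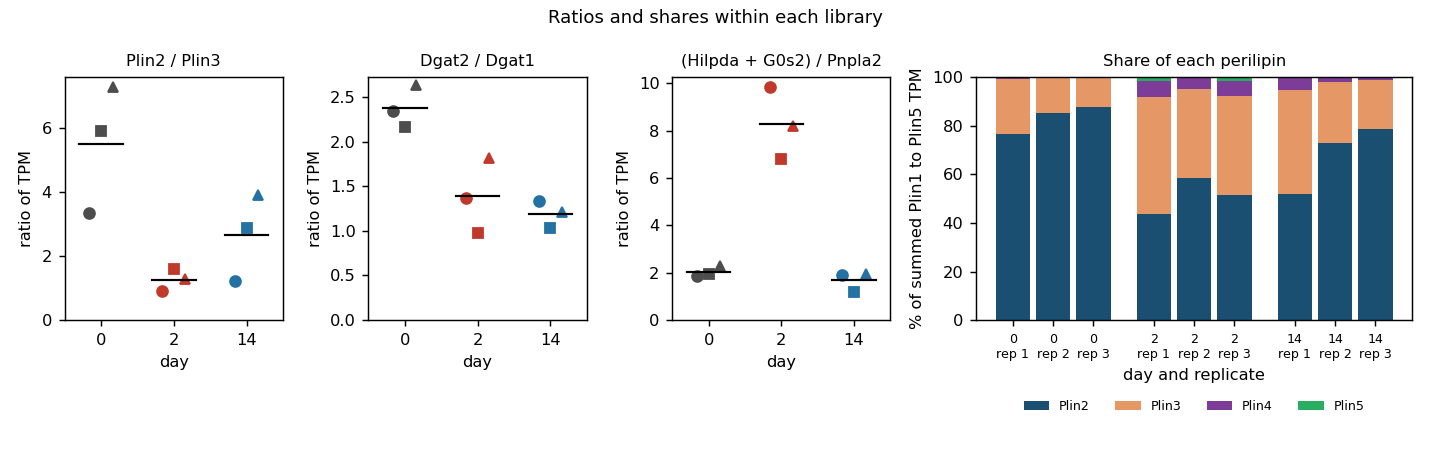
Ratios of TPM within each library by day for Plin2 to Plin3, Dgat2 to Dgat1 and the summed inhibitors to Pnpla2 (points: libraries, line: mean of 3), and at the right the percent of summed perilipin TPM held by Plin2, Plin3, Plin4 and Plin5 in each library. The mean ratio of Hilpda plus G0s2 to Pnpla2 was 2.03 at day 0, 8.27 at day 2 and 1.69 at day 14.

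Lpin1 had the largest change among the 3 synthesis genes. It encodes lipin-1, a phosphatidate phosphatase that can also act in the nucleus as a coactivator. Its TPM were 2.25, 1.02 and 0.593 at day 0, 10.8, 7.55 and 9.26 at day 2, and 5.35, 5.86 and 5.02 at day 14. The 3 days did not overlap, with day 2 the highest and day 0 the lowest. The mean rose 7.14-fold at day 2, from 1.29 ± 0.863 to 9.21 ± 1.63 TPM, and was 4.197-fold above day 0 at day 14, at 5.41 ± 0.425 TPM. On the log2 scale these were 2.21 (SE 0.25, adjusted p 6.89e-05) and 1.55 (SE 0.25, adjusted p 0.000818). In size they ranked at the 95.7th and 93.4th percentile of all genes tested. Since the gene is low at day 0, a pseudocount of 5 TPM lowered them to 1.18 and 0.74, both still past the threshold, and quantile normalization gave 0.93 at day 14. Replicate 3 of day 0 was under 1 TPM, so Lpin1 passed the expression filter only with libraries of the later days. Its rises from day 0 are therefore partly set by the filter. Neither their p-values and ranks nor their part in the counts of members is used as support. The step from day 2 to day 14 was -0.66 and missed the threshold (adjusted p 0.0684), while with median-of-ratios scaling it was -0.89 (adjusted p 0.0383), with quantile normalization -1.09 (0.0134), and without replicate 1 or replicate 3 of day 0 the adjusted p was 0.0226 or 0.0468.

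The 2 DGAT genes encode unrelated enzymes for the same last step. Dgat2 was at 29.9, 30.3 and 30.6 TPM at day 0, at 21.3, 18.3 and 25.1 TPM at day 2, and at 20.0, 21.3 and 18.8 TPM at day 14. All 6 later libraries were below day 0. The fall was -0.48 at day 2 (SE 0.12, adjusted p 0.00825) and -0.57 at day 14 (SE 0.12, adjusted p 0.00409), or -0.79 relative to the median of all genes. The day 2 call was lost with quantile normalization (-0.31, adjusted p 0.123) and without the 20 most abundant rows (-0.33, adjusted p 0.0767). The change from day 2 to day 14 was -0.09 (adjusted p 0.622, interval -0.37 to 0.19).

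Dgat1 was at 12.8, 14.0 and 11.6 TPM at day 0, at 15.6, 18.7 and 13.8 at day 2, and at 15.0, 20.7 and 15.6 at day 14. Day 2 overlapped day 0, and day 14 lay above it. Its changes did not pass the test, at 0.30 (adjusted p 0.131, interval -0.06 to 0.65) and 0.38 (adjusted p 0.0642, interval 0.03 to 0.74). Without the 20 most abundant rows both passed (adjusted p 0.0184 and 0.0274), as they did without Mir6236 and Rn45s (0.0281 and 0.0276), and the day 14 value did without replicate 2 of day 2 (0.04998). The ratio of Dgat2 to Dgat1 within a library was 2.34, 2.17 and 2.64 at day 0, 1.37, 0.978 and 1.81 at day 2, and 1.33, 1.03 and 1.21 at day 14. In each library of day 0 it was above all 6 later values.

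The lipase gene Pnpla2 rose late. It stood at 39.7, 36.9 and 35.7 TPM at day 0, at 49.3, 37.7 and 34.8 at day 2, and at 58.8, 57.5 and 59.2 at day 14. The 3 libraries of day 14 were above the other 6, which overlapped. The mean was 37.4 ± 2.04, 40.6 ± 7.67 and 58.5 ± 0.893 TPM. Against day 0 the change was 0.10 at day 2 (adjusted p 0.527, interval -0.19 to 0.39) and 0.63 at day 14 (SE 0.13, adjusted p 0.00309), or 0.41 above the median of all genes. Median-of-ratios scaling gave the latter as 0.41, still past the threshold. Against day 2 it rose by 0.53 (adjusted p 0.0141), and this call was lost with median-of-ratios scaling (0.27, adjusted p 0.138) and quantile normalization (0.27, adjusted p 0.127). At day 2 against day 0, quantile normalization gave a rise of 0.34 (adjusted p 0.0405), and the value without replicate 1 of day 2 was -0.044.

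Abhd5 (CGI-58), the protein that switches ATGL on, fell on both days. Its TPM were 5.65, 7.41 and 6.10 at day 0, 3.19, 4.90 and 4.09 at day 2, and 4.52, 2.84 and 3.77 at day 14. No later library reached the range of day 0. The changes were -0.55 (SE 0.19, adjusted p 0.0284) at day 2 and -0.66 (SE 0.19, adjusted p 0.0144) at day 14, or -0.88 relative to the median of all genes. The day 2 call was lost under 7 of 21 alternatives, among them leaving out replicate 2 or 3 of day 0 (adjusted p 0.106 and 0.0581) and replicate 1 or 3 of day 2 (0.0974 and 0.0576). The day 14 call was lost without replicate 2 of day 0 (0.0605) or replicate 2 of day 14 (0.0524). A pseudocount of 5 TPM gave -0.33 and -0.39, and quantile normalization gave -1.17 at day 14.

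Of the 9 genes, Hilpda had the largest swing in TPM. It encodes a small droplet protein that inhibits ATGL. It was at 73.1, 71.8 and 81.5 TPM at day 0, at 484, 256 and 284 TPM at day 2, and at 111, 68.4 and 116 TPM at day 14. Day 2 was above all other libraries, with replicate 1 the highest, and days 0 and 14 overlapped. The mean rose 4.52-fold at day 2, from 75.5 ± 5.27 to 341 ± 124 TPM, and was 98.4 ± 26.1 TPM at day 14. The log2 change at day 2 was 2.11 (SE 0.26, adjusted p 0.000127), at the 95.1th percentile in size of all genes tested. At day 14 against day 0 it was 0.34 (adjusted p 0.285, interval -0.24 to 0.93). From day 2 to day 14 it fell by 1.76 (SE 0.26, adjusted p 0.00131), 3.47-fold lower in mean TPM. Both calls held under all 22 alternatives.

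Hilpda has 2 RefSeq starts on the plus strand of chromosome 6, 138 bases apart. In the 300-base window of the downstream one, at chr6:29272376-29272675, there were 3 matches to the HIF core letters, at positions -111, -43 and -8, and none to CACGTG or AGGTCA. They are shown, in capitals with 10 bases on each side, because Hilpda is a known HIF target. The oxygen level of these cultures is not given.
Hilpda -111: accgcgagccGCGTGctttccgtga
Hilpda -43: tggccagcggACGTGccccagggcg
Hilpda -8: ggttcggtacGCGTGcgcagtctcc
The first of these is the match at position 28 of the upstream start. ACGTG alone was held by 19.62% of all windows and GCGTG by 32.39%. The windows of Abhd5 and G0s2 also held GCGTG, while that of Lpin1 held AGGTCA only and that of Pnpla2 none of the 4.

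G0s2, the other ATGL inhibitor, was near the bottom of the scale. It was at 0.391, 0.117 and 0 TPM at day 0, at 0.262, 0.121 and 0.898 at day 2, and at 0.552, 1.01 and 0.135 at day 14. Only 1 of the 9 libraries reached 1 TPM, so the gene was not tested. The sum of both inhibitors was 1.85, 1.95 and 2.29 times the TPM of Pnpla2 in the libraries of day 0, 9.82, 6.79 and 8.19 times at day 2, and 1.89, 1.21 and 1.96 times at day 14. Day 2 stood apart from both other days, which overlapped.

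Other genes of the pathway were read from 6 lists and described by counts. Of all genes tested, 27.1% were called higher and 31.9% lower at day 2, and 36.2% and 18.8% at day 14, each against day 0. Among 17 tested droplet proteins, 8 rose and 7 fell at day 2 (median 0.28, beside -0.02 for all genes), and 8 rose and 1 fell at day 14 (median 0.34, beside 0.22). With median-of-ratios scaling the day 14 counts were 6 and 3 (median 0.12, beside 0.02). The largest rise at day 2 was that of Plin4, another perilipin, from 0.692 ± 0.479 to 11.2 ± 3.71 TPM (log2 2.85, adjusted p 0.00105). At day 14 it was that of Cidea, which promotes droplet fusion and growth, from 0.169 ± 0.293 to 5.95 ± 2.62 TPM (log2 2.53, adjusted p 0.000169). Both genes passed the expression filter through the libraries of the later days. So did Cideb and Plin5, which are among the genes of this list that rose at day 2. The same holds for genes of the lists below that were low at day 0, such as Abca1 and Pnpla3. For such genes a rise from day 0 is partly set by the filter. Neither their p-values nor their part in the counts is used as support. The largest falls were those of Pcyt1a, of phosphatidylcholine synthesis, from 45.9 to 23.1 TPM at day 2 (log2 -0.97, adjusted p 0.00612), and of Bscl2 (seipin), of droplet assembly, from 27.03 to 21.4 TPM at day 14 (log2 -0.32, adjusted p 0.0192). The Bscl2 call was lost without replicate 2 of day 0 (adjusted p 0.0802) or replicate 3 of day 14 (0.0669).

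Of 20 other genes of glycerolipid synthesis, 2 rose and 10 fell at day 2, with a median of -0.37 beside -0.02 for all genes. With quantile normalization 1 rose and 7 fell, and the median was -0.057 beside 0.046. At day 14, 5 rose and 6 fell with TPM as deposited, against 4 and 11 with median-of-ratios scaling. Gpd1l, related to the enzyme that makes glycerol 3-phosphate, had the largest fall on both days, from 23.7 to 5.97 TPM (log2 -1.83, adjusted p 2.37e-05) and 8.61 TPM (log2 -1.38, adjusted p 0.000221). The largest rises were those of Lpin2, another lipin, from 11.5 to 32.3 TPM at day 2 (log2 1.34, adjusted p 0.00228), and of the phospholipid phosphatase gene Plpp3 from 7.38 to 25.1 TPM at day 14 (log2 1.61, adjusted p 0.000373).

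Of 13 other lipases and lipolysis genes, 4 rose and 4 fell at day 2, and 5 rose and 2 fell at day 14, or 4 and 3 with median-of-ratios scaling and 3 and 4 with quantile normalization. The list medians were -0.18 and 0.20, beside -0.02 and 0.22 for all genes, and the counts are near the shares of all genes. Lipe, the hormone-sensitive lipase that acts after ATGL, rose the most on both days, from 5.27 to 11.01 and 14.3 TPM (log2 0.92 and 1.28, adjusted p 0.00129 and 0.000298). Lpl, the lipase that frees fatty acids from lipoproteins outside the cell, fell from 7.30 to 1.68 and 1.79 TPM (log2 -1.63 and -1.58, adjusted p 1.47e-05 and 4.74e-05).

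Of 15 genes of fatty acid uptake and activation, 4 rose and 5 fell at day 2, and 4 rose and 3 fell at day 14 (4 and 4 with median-of-ratios scaling, 2 and 3 with quantile normalization). The list medians were 0.01 and 0.19, beside -0.02 and 0.22 for all genes, and these counts too are near the shares of all genes. The lipoprotein receptor gene Vldlr had the largest rise on both days, from 1.26 to 74.0 and 57.0 TPM (log2 5.05 and 4.69, adjusted p 1.94e-07 and 1.42e-06). Dbi, the acyl-CoA binding protein, fell from 406 to 107 TPM at day 2 (log2 -1.95, adjusted p 7.62e-05), and the fatty acid carrier Fabp5 from 19.1 to 2.37 TPM at day 14 (log2 -2.59, adjusted p 2.16e-05).

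Of 7 sterol ester genes, 3 rose and 1 fell at day 2, and 4 rose and 0 fell at day 14 (3 and 2 with median-of-ratios scaling). The medians of this list were 0.26 and 0.43, beside -0.02 and 0.22 for all genes. Soat2, which esterifies cholesterol, went from 6.27 to 42.2 and 41.7 TPM (log2 2.55 and 2.54, adjusted p 6.61e-06 and 2.58e-05). Lcat fell from 4.0 to 2.07 TPM at day 2 (log2 -0.70, adjusted p 0.00944). Of 19 regulators of droplet genes, 10 rose and 1 fell at day 2, and 11 rose and 0 fell at day 14 (9 and 0 with median-of-ratios scaling). Their medians were 0.37 and 0.50, beside the same medians of all genes. Foxo3, a transcription factor of the starvation response, rose the most, from 6.37 to 42.1 and 23.2 TPM (log2 2.48 and 1.67, adjusted p 7.92e-05 and 0.00113). The fall of Ppard, a fatty acid sensing receptor, from 54.8 to 35.3 TPM (log2 -0.62, adjusted p 0.0405) was lost when any 1 of the libraries of day 0 or day 2 was left out (adjusted p from 0.0539 to 0.110).

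At day 14 against day 2 the balance of the lists depended on the scaling, in a comparison where 27.4% of all genes were called higher and 3.79% lower with TPM as deposited. Of the droplet proteins 7 rose and 1 fell (median 0.49, beside 0.25 for all genes), against 2 and 1 with median-of-ratios scaling. Of the glycerolipid synthesis genes 9 rose and 1 fell (median 0.34), against 3 and 4 with median-of-ratios scaling and 2 and 4 with quantile normalization. Of the lipolysis genes 4 rose and 0 fell (median 0.36), against 3 and 0 with median-of-ratios scaling. In the lists of uptake, sterol esters and regulators 3, 2 and 1 rose and 2, 0 and 0 fell, against 0, 1 and 1 that rose and 4, 1 and 4 that fell with median-of-ratios scaling.

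**Figure D4:**
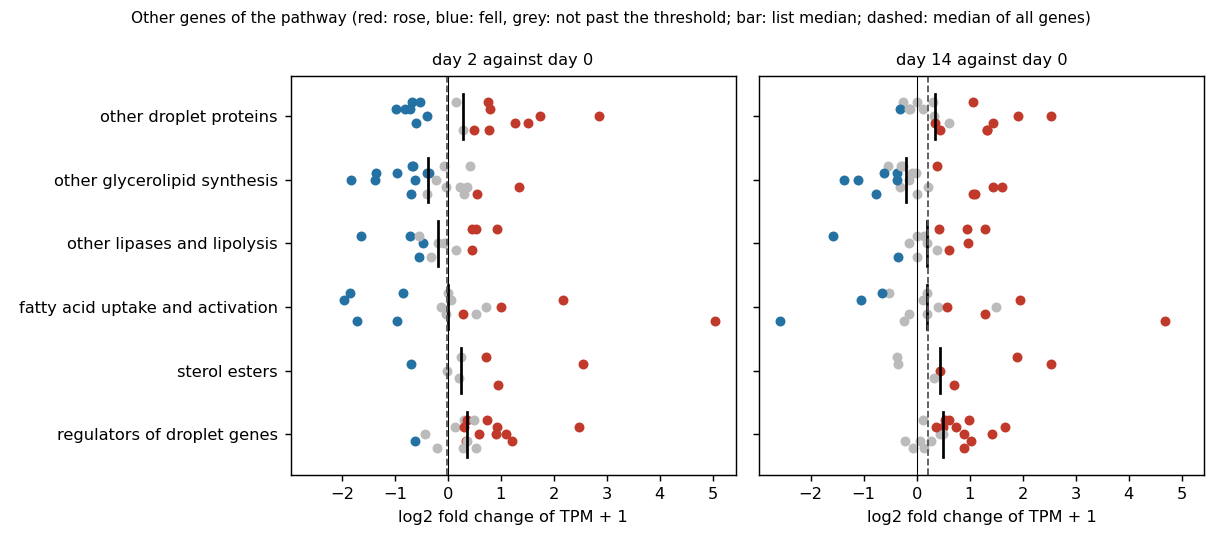
Log2 fold change of TPM + 1 (horizontal axis) of each tested gene in 6 lists at day 2 and day 14 against day 0, in red where it rose, blue where it fell and grey where it did not pass, with a bar at the list's median and a dashed line at the median of all genes. The glycerolipid synthesis list has its median at -0.37 at day 2 (-0.057 with quantile normalization), and Vldlr is the point at 5.05.

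The genes whose pattern was closest to 3 members were found among 8583 eligible genes, by the root mean square difference of log2(TPM + 1) over the 9 samples after each gene's mean was taken out. This is a description with no test. Nearest to Lpin1 were Rell2 (0.152), Abtb1 (0.175), Aldoa (0.186) and Arrdc2 (0.193). Of these, the glycolytic enzyme gene Aldoa had means of 897, 4085 and 2538 TPM on the 3 days. Nearest to Hilpda were Add2 (0.250), Ptpru (0.265), Plxnd1 (0.293) and Ndrg2 (0.330), and Ndrg2 had means of 14.4, 63.3 and 26.2 TPM. Nearest to Plin2 were Ube2n (0.0968), Wrap53 (0.0992), Rrn3 (0.108) and Gins4 (0.113), and Ube2n, a ubiquitin-conjugating enzyme gene, had means of 55.7, 26.6 and 43.1 TPM. The distances differ between members partly by construction, since a member with a wider range of day means leaves more room (2.21 for Lpin1, 2.11 for Hilpda and 1.08 for Plin2, log2).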

How the data were processed

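RNA was measured by sequencing in 9 samples of the line 6620c1, 3 each at day 0, 2 and 14. Per the labels' protocols, a Qiagen kit gave total RNA and Novogene made the libraries. Per the submitters' processing notes, transcripts were quantified with Salmon. Not given in the sources used here were its version and index, the genome build, the annotation and the meaning of the prefix WT on the column names. The deposited values are gene TPM, scaled by the authors to the same total in each sample, and no further scaling between samples was visible. Depth is unknown.

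Genes with 1 TPM or more in 3 or more samples entered the test on log2(TPM + 1), with all 9 samples in 1 limma fit with a mean per day and trended moderated variances (limma 3.58.1, R 4.3.3). P-values are two-sided, adjusted by Benjamini-Hochberg over all 12693 genes, and called under 0.05. Day 2 and day 14 were each compared with day 0 and with each other, the last also testing whether the change differed between the 2 times. The method was tested on simulated data. Ratios and shares were computed in R, while Python 3.11.15 and matplotlib 3.10.9 served for promoter searches, gene order and figures.

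All 9 members are named. In each pathway list the tested gene with the largest rise and the one with the largest fall past the threshold at day 2 and at day 14 are named, and for the 3 members of widest range the 4 genes of most like pattern with at least 10 TPM on 1 day (predicted genes and microRNA and snoRNA rows left out). Members and lists were chosen with earlier results of these data known. Alternatives were other pseudocounts, filters, scalings and variance models, sample weights, a replicate block, fits of only the groups compared, and leaving out each sample.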

Additional observations from a re-analysis of the deposited data

Results flagged for a closer look

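The change from day 0 differed between day 2 and day 14 for 3 of the 8 tested members, by the day 14 against day 2 comparison of the limma fit over all genes. In this comparison 31.2% of all 12693 genes tested were called, so the number of members is near what genes at large showed. For Hilpda the difference was -1.76 on the log2 scale (adjusted p 0.00131), with all 3 libraries of day 14 below all 3 of day 2. For Plin2 it was 0.79 (adjusted p 0.00619), with all 3 above. For Pnpla2 it was 0.53 (adjusted p 0.0141), with all 3 above, and the call was lost under median-of-ratios scaling and quantile normalization. Both times are set against the same day 0 samples, and the median of all genes in this comparison was 0.25.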

How the results depend on the processing

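The 24 member results (8 genes in 3 comparisons) were recomputed under 22 alternatives, 525 values in all, since a filter on a mean of at least 5 TPM leaves Abhd5 out. Of these, 476 kept their direction and side of the threshold, 17 lost the call, 20 gained one and 12 turned direction, none of the 12 past the threshold. The cause was not tested. The number of members called at day 14 against day 0 was 7 with array weights in place of 4, adding Plin2 (-0.37, adjusted p 0.0240), Plin3 (0.68, 0.0215) and Dgat1 (0.41, 0.0179). The genes called at day 14 against day 2 numbered 2616 in place of 3955 when only those 2 days were fitted, a fit with fewer samples. At day 14 against day 2, Dgat1 turned to -0.17 with median-of-ratios scaling, -0.23 with quantile normalization and -0.034 without the 20 most abundant rows. With single libraries left out, values that changed sign ranged over -0.044 to 0.20 for Pnpla2 (day 2 against day 0), -0.55 to 0.078 for Plin3 (day 14 against day 2), -0.053 to 0.19 for Dgat1 (day 14 against day 2), -0.20 to 0.023 for Dgat2 (day 14 against day 2) and -0.23 to 0.034 for Abhd5 (day 14 against day 2). Members called ranged from 4 to 6, 3 to 5 and 3 to 4 in the 3 comparisons when 1 library was left out. Same-numbered samples of different days had deviations correlated at -0.07 to 0.32 across genes, the highest between replicate 1 of days 2 and 14. In this check 4 of 9 samples correlated best with their own number. Whether replicate numbers pair the samples cannot be decided from these values. With a replicate block in the fit, 7582, 7116 and 4031 genes and 6, 6 and 3 members were called in the 3 comparisons, and Plin3 (0.82, adjusted p 0.00352) and Dgat1 (0.38, 0.0223) passed at day 14 against day 0. With TPM alone, what the read depth can resolve for G0s2, Lpin1 and Abhd5 is unknown.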

Other observations

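The perilipin genes Plin3, Plin4 and Plin5 lie near each other in the RefSeq gene order of mouse chromosome 17. Plin4 and Plin5 are next to each other, and Plin3 is number 10 among the protein-coding genes when Plin4 is number 1, while Plin2 lies on chromosome 4 and Plin1 on chromosome 7. In each of the 3 genes on chromosome 17, replicate 1 had the highest TPM of its day on all 3 days. For Plin4 the TPM were 1.22, 0.555 and 0.296 at day 0, 15.3, 8.01 and 10.4 at day 2, and 14.3, 3.40 and 2.51 at day 14. For Plin5 they were 0.434, 0.216 and 0.0918, then 3.39, 0.789 and 2.32, then 1.05, 0.786 and 0.861. Plin5 reached 1 TPM in 3 libraries only, none of them of day 0, so it passed the expression filter through the later days. Its change enters only the counts and medians of the droplet protein list and is not used as support. This pattern was chosen after the values were seen, and a link between position and level was not tested.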
